A study of Rattus norvegicus with 18 samples.

Results

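The genes that take up, store, oxidise and release iron and that degrade or scavenge heme were described in kidneys of 2 rat strains. The members were Fth1, Ftl1, Tfrc, Tf, Cp, Slc11a2, Hmox1, Hmox2 and Hpx, and every probe set whose platform annotation gave 1 of these symbols and no other was taken. This gave 20 of the 26202 probe sets that are not controls, for 9 of the 10969 named genes. A further 7 probe sets carry Fth1, Ftl1 or Tf together with other symbols and were not used. The congenic strain (3 samples) holds a chromosome 9 interval with a blood pressure locus, taken from a salt-resistant (R) donor and bred onto the Dahl Salt-sensitive (S) strain. It was set against the Dahl S strain itself (3 samples), an inbred rat that becomes hypertensive when fed salt, so both share the Dahl S genome outside the interval. The kidney RNA of every sample was measured on 3 types of array, A, B and C, for 18 arrays. The labels used here give no diet, age or sex. Nor do they say whether samples of a strain came from different animals, so that every test here rests on a spread between samples that could be technical. In the GRCr8 gene table Fth1, Ftl1 and Hpx lie on chromosome 1, Cp on 2, Slc11a2 on 7, Tf on 8, Hmox2 on 10, Tfrc on 11 and Hmox1 on 19, so 0 members lie on chromosome 9.

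Cells take up iron bound to transferrin through the transferrin receptor and move it across endosomal and brush border membranes through DMT1. Iron that is not used is held in ferritin, a shell of heavy and light chains, and it leaves the cell through ferroportin with the help of copper ferroxidases such as ceruloplasmin. Iron regulatory proteins block the translation of ferritin mRNA and stabilise the mRNA of the transferrin receptor when iron is scarce, so ferritin is set largely after transcription. Heme from haemoglobin and other proteins is bound by hemopexin in plasma and opened by heme oxygenases into biliverdin, carbon monoxide and iron. The kidney filters and takes back both transferrin and free haemoglobin in the proximal tubule, and Hmox1 is known there as a gene induced by heme and by oxidants.

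Promoter windows, 250 bases before to 50 bases after the annotated start, were matched by symbol in the RefSeq table (build GRCr8) for 6 members, Tfrc, Tf, Cp, Slc11a2, Hmox2 and Hpx, in 8 windows, since Slc11a2 and Hmox2 have 2 starts each. They were searched on both strands for ACGTG, the core of the hypoxia response element, and for TGACNNNGC, the antioxidant response element. ACGTG was in 2 of the 8 windows, against 19.3% of all 33469 windows in the table, and TGACNNNGC was in 2 of the 8, against 12.1%. The Tfrc window holds ACGTG from 31 to 27 bases before the start, and the first Hmox2 window holds it on the opposite strand from 11 to 7 bases before. TGACNNNGC lies on the opposite strand from 99 to 91 bases before the start in Hpx and from 95 to 87 bases before the start in the first Hmox2 window. A match is a description of the letters and not a site shown to be used. Cp and Hpx are printed because they were the members with the smallest p in the strain comparison, and Tfrc because of its match; capitals mark the motif letters, which in Hpx read as the reverse complement, and the Cp window held neither motif. The windows are chr2:104368420-104368719 on the plus strand for Cp, chr1:169352106-169352405 on the minus strand for Hpx and chr11:81690269-81690568 on the minus strand for Tfrc.
Cp: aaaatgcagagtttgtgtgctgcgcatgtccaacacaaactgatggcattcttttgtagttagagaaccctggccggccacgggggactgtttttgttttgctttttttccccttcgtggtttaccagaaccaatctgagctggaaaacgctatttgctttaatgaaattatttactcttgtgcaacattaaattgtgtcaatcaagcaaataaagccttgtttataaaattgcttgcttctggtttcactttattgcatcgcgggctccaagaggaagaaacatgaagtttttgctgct
Hpx: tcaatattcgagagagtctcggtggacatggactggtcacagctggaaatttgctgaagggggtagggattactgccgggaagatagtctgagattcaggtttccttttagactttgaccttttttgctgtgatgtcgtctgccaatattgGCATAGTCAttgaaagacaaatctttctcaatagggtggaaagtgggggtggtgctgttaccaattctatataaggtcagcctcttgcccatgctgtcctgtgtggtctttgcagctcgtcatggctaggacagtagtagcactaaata
Tfrc: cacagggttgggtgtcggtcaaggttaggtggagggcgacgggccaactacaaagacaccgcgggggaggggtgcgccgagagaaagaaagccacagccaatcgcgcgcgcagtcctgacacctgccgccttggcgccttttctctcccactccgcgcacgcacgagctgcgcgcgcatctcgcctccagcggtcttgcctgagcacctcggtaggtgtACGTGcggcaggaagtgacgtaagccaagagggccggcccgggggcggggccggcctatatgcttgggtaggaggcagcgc

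The arrays give 1 signal per probe set on a linear scale. Median signals were 34.8 to 45.9 units (type A), 60.4 to 78.5 (type B) and 61.1 to 75.6 (type C). A probe set was tested only where its mean reached the 40th percentile of its type, 21.2, 39.3 and 37.7 units. A signal under that level was not shown to be above background. Markers of the labelled tissue were bright: Umod, the uromodulin of the thick ascending limb, read 6513.6 to 7154.1 in the congenic and 5763.4 to 7455.6 in the Dahl S samples. The endocytic receptors Lrp2 (megalin, 3067.6 to 4018.2 in the congenic and 2864.1 to 3765.7 in the Dahl S samples) and Cubn (cubilin, 1087.8 to 1158.7 in the congenic and 972.5 to 1019.3 in the Dahl S samples), which take filtered transferrin and haemoglobin back into the proximal tubule, were also bright. The samples numbered 1 of both strains stood apart from the others. Their log2 ratios of 3 prime to 5 prime signal, a measure of RNA quality, were 0.107 in congenic sample 1 and 0.313 in Dahl S sample 1 for GAPDH, against 0.538 to 0.684 in the other samples, and 0.499 and 0.488 for beta-actin, against 1.07 to 1.35. Dahl S sample 3 stood apart in red cell RNA, with a signal of 36676.3 for the alpha-globin Hba-a1, against 5917.3 to 11704.4 in the congenic samples and 7613.3 and 9870.9 in the other Dahl S samples.

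No member differed between the strains beyond the adjusted threshold. Of the 20 probe sets 14 were tested, for 7 genes, and the probe sets of Fth1 and Tf stayed under the filter. The congenic mean was above the Dahl S mean in 8 of the 14 and under it in 6, the median log2 difference was 0.06 and the median size of a difference was 0.21. Over all 15721 tested probe sets the same values were 7781 higher (49.5%), -0.003 and 0.18. In limma 0 of the 14 passed an adjusted p of 0.05, as did 0 of all tested probe sets (0%), and every member had an adjusted p of 0.9997. At an unadjusted limma p under 0.05 there was 1 of the 14, a Cp probe set with lower congenic signal, where 2.49% of all tested probe sets had such a p (1.17% with higher and 1.32% with lower congenic signal). The congenic and Dahl S values did not overlap in 1 of the 14, another Cp probe set, where 7.08% of all tested probe sets were so separated (3.59% with congenic values higher and 3.49% with them lower). The median 95% interval of a member's log2 difference, before adjustment, extended 0.69 to either side. For the median member a smaller difference would not have left out 0 even before adjustment. In RNA of a whole kidney, fewer cells of a type and less RNA per cell cannot be told apart.

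**Figure D1:**
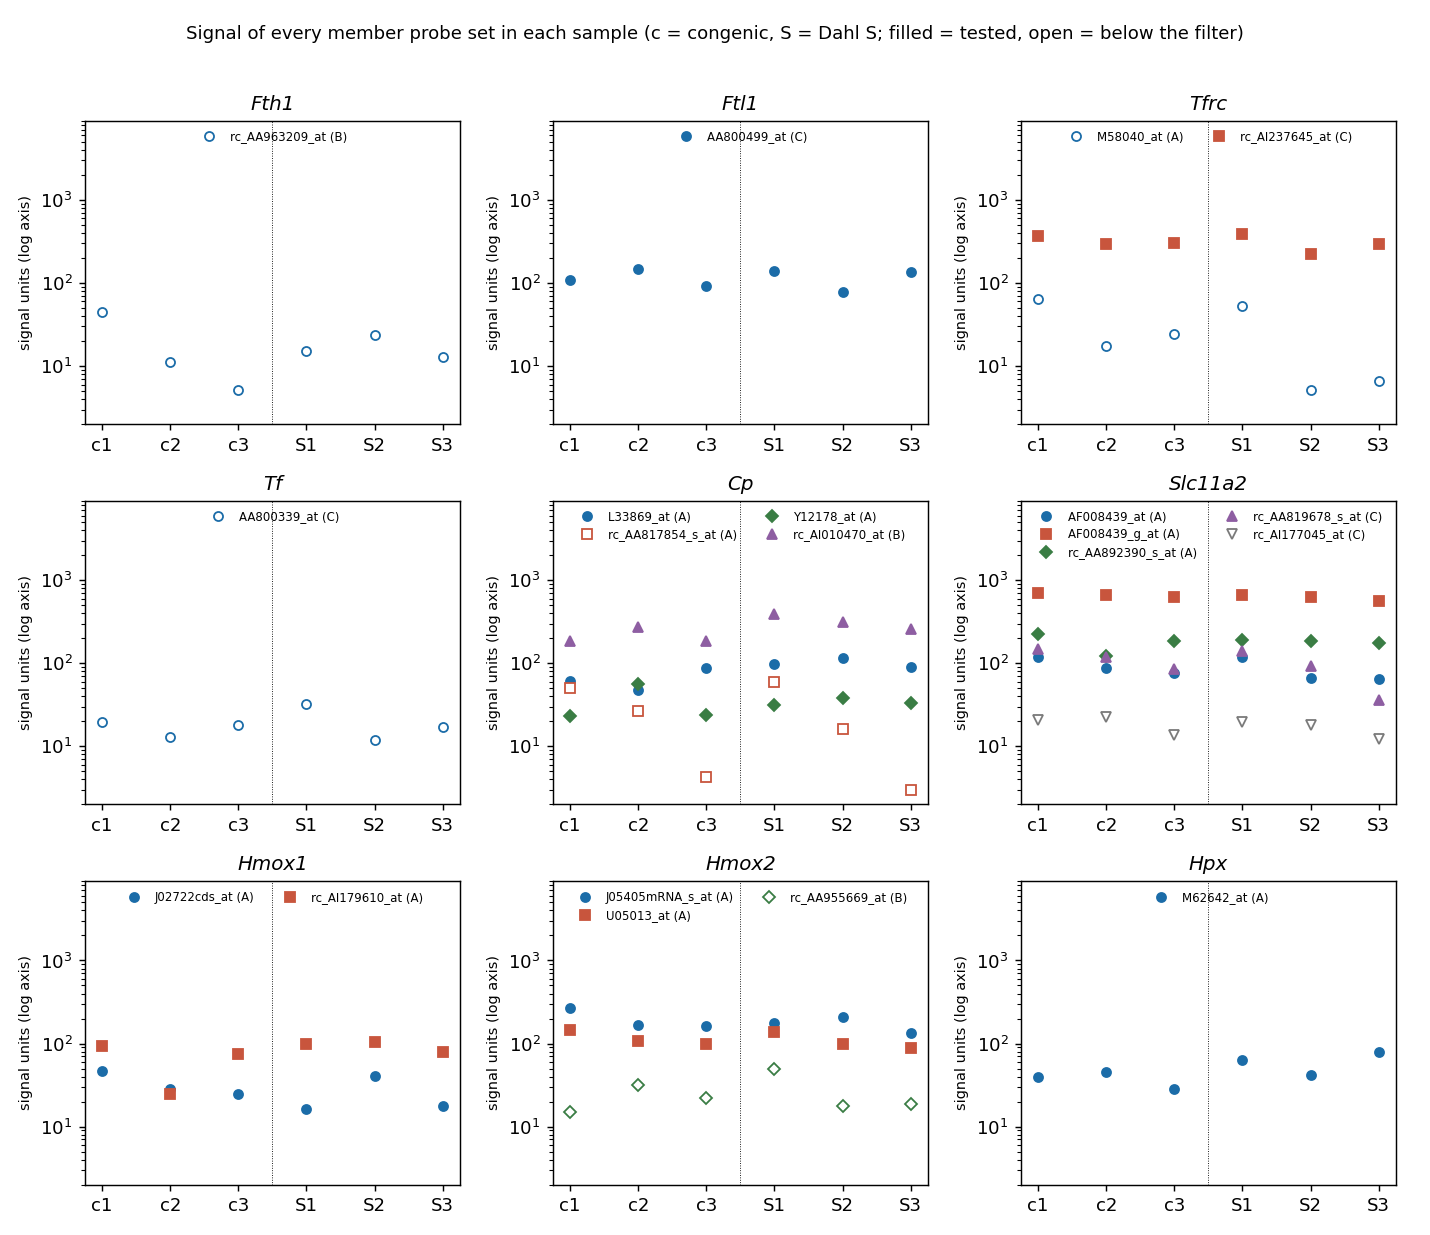
Signal of the 20 member probe sets in each sample, on a log axis in signal units, 1 panel per gene. Congenic samples (c1 to c3) are left of the dotted line and Dahl S samples (S1 to S3) right of it; filled symbols were tested and open symbols lay below the filter. The L33869_at probe set of Cp is the one tested member whose congenic values, 48.3 to 88.3, all lie below its Dahl S values, 91.3 to 116.1.

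Ferritin had 1 probe set with a single symbol for each chain. The 3 probe sets that carry Ftl1 and the 1 that carries Fth1 among several symbols were not used. Ftl1, the light chain that forms the iron core, read 108.1, 147.1 and 91.1 units in the congenic samples and 138.2, 77.6 and 134.6 in the Dahl S samples. The values overlapped throughout, and the log2 difference was 0.002 (SE 0.30, 95% interval -0.69 to 0.69), a ratio between 0.619 and 1.62. Fth1, the heavy chain with the ferroxidase site, had 1 usable probe set, which read 44.3, 11.3 and 5.1 in the congenic samples and 15, 23.4 and 12.9 in the Dahl S samples. Of these 6 values 5 lay under the filter level of type B and congenic sample 3 was under the floor of 6.8 units, so this probe set gave no usable level for Fth1 and was not tested.

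Transferrin and its receptor were both represented. Tfrc, the transferrin receptor, read 371.2, 296.6 and 307.2 units on probe set rc_AI237645_at in the congenic samples and 387, 224.4 and 293.2 in the Dahl S samples. The groups overlapped, with the samples numbered 1 highest in both, and the log2 difference was 0.14 (SE 0.22, interval -0.36 to 0.64). The second Tfrc probe set, M58040_at, was too dim to test and read 64.3, 17.3 and 24.4 in the congenic samples, against 52.9, 5.1 and 6.7 in the Dahl S samples. There too the samples numbered 1 were highest in both strains. Tf, the plasma iron carrier made mainly by the liver, read 19.5, 13 and 18.1 in the congenic and 31.9, 11.8 and 16.9 in the Dahl S samples, all 6 under the filter level of type C.

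Slc11a2 encodes DMT1, the proton-coupled carrier of ferrous iron, and had 5 probe sets. Probe set AF008439_g_at read 698.1, 668.5 and 626.8 units in the congenic samples and 656.1, 632.9 and 554.7 in the Dahl S samples. It had the narrowest interval of all tested members, with a log2 difference of 0.11 (SE 0.14, interval -0.20 to 0.43) and a ratio between 0.870 and 1.35. Probe set AF008439_at, made from the same sequence, differed by 0.22 (SE 0.33), and rc_AA892390_s_at by -0.08 (SE 0.24). Probe set rc_AA819678_s_at had the widest interval of the tested Slc11a2 probe sets, with 147.4, 118.1 and 85.6 in the congenic and 139.7, 92 and 36.2 in the Dahl S samples and a difference of 0.56 (SE 0.48). That difference was 0.01 without Dahl S sample 3, the one low sample. The fifth probe set, rc_AI177045_at, lay between 12.1 and 22.4 in all 6 samples, under the filter. Of the 4 tested Slc11a2 probe sets 3 were higher and 1 lower in the congenic mean, and 0 were separated between the strains.

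Cp, the copper ferroxidase ceruloplasmin that oxidises iron as it leaves the cell, had the smallest p values among the members. Probe set rc_AI010470_at read 187, 270 and 184.4 units in the congenic samples and 388.1, 318.1 and 259.1 in the Dahl S samples. Congenic sample 2 overlapped Dahl S sample 3, and the other congenic values lay below all Dahl S values. The geometric means were 210.4 in the congenic and 317.4 in the Dahl S samples, a congenic to Dahl S ratio of 0.663 (log2 difference -0.59, SE 0.26, 95% interval -1.17 to -0.02). The interval left out 0 before adjustment, and with an adjusted limma p of 0.9997 the probe set did not pass. Probe set L33869_at, on another array type, read 61, 48.3 and 88.3 in the congenic samples and 97.6, 116.1 and 91.3 in the Dahl S samples. These groups did not overlap, though congenic sample 3 and Dahl S sample 3 were close, and the log2 difference was -0.66 (SE 0.30, interval -1.35 to 0.02).

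Of the other Cp probe sets 1 was tested. Y12178_at read 23.1, 56.6 and 23.8 in the congenic samples and 31.5, 38.1 and 33.6 in the Dahl S samples, with congenic sample 2 above all others (log2 difference -0.12, SE 0.48). The fourth, rc_AA817854_s_at, was under the filter in the mean and spread from 4.3 to 50.1 in the congenic and from 3 to 58.9 in the Dahl S samples. The size of the rc_AI010470_at difference depended on the samples numbered 1: without Dahl S sample 1 it was -0.45 and without both samples numbered 1 it was -0.36. Its unadjusted limma p stayed under 0.05 only when congenic sample 2 or Dahl S sample 3 was the 1 sample left out. The L33869_at difference was -0.66 without both samples numbered 1 and -0.46 without congenic sample 2.

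**Figure D2:**
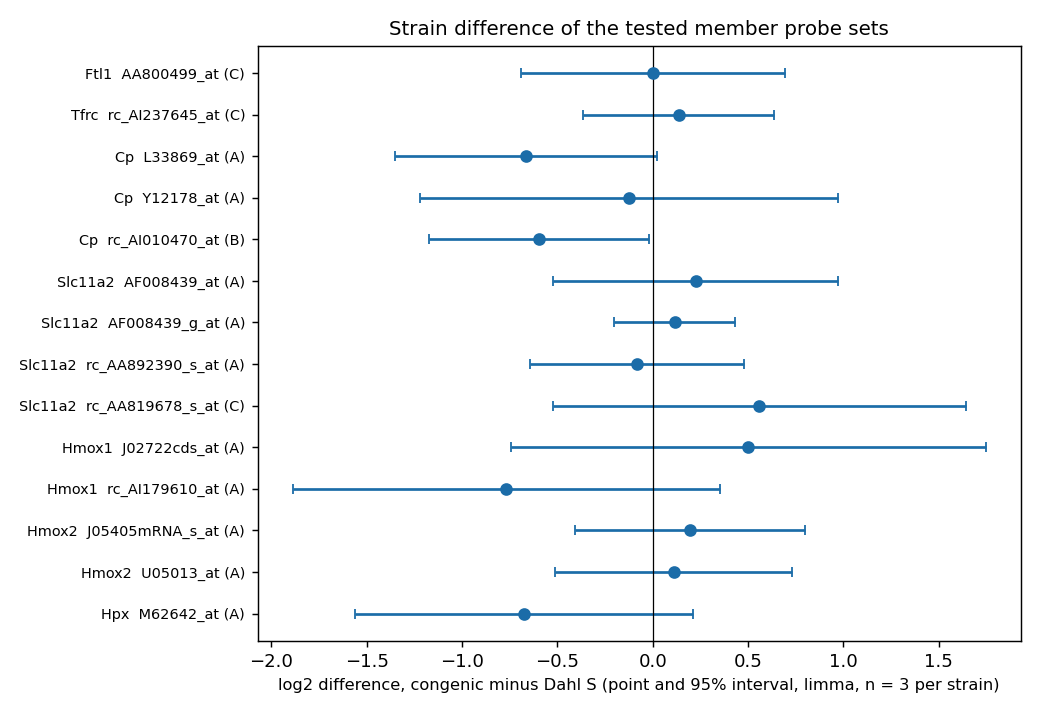
Log2 difference, congenic minus Dahl S, of the 14 tested member probe sets, as points with 95% intervals from limma (3 samples per strain). Only the Cp probe set rc_AI010470_at has an interval that leaves out 0, from -1.17 to -0.02 before adjustment; the widest intervals belong to Hmox1.

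Hmox1, the inducible heme oxygenase, was measured by 2 probe sets that read in opposite directions. Probe set rc_AI179610_at gave 92.8, 24.4 and 74.3 units in the congenic samples and 98.9, 105.1 and 79.8 in the Dahl S samples. Congenic sample 2 was low and the other 5 samples lay between 74.3 and 105.1. The log2 difference was -0.77 (SE 0.49, 95% interval -1.89 to 0.35), and without congenic sample 2 it was -0.18. Without congenic sample 1 it was -1.14, with an unadjusted limma p under 0.05. Probe set J02722cds_at gave 46.4, 28.5 and 24.9 in the congenic samples and 16.5, 40.2 and 17.5 in the Dahl S samples. The groups overlapped and Dahl S samples 1 and 3 were under the filter level of 21.2, so the difference of 0.50 (SE 0.54, interval -0.74 to 1.75) is uncertain in size; it was 0.006 without both samples numbered 1. With intervals that span 0 on both probe sets, no strain difference in Hmox1 was detectable.

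Hmox2 encodes the constitutive heme oxygenase. Probe set J05405mRNA_s_at read 266.7, 166.2 and 164.3 units in the congenic samples and 174.5, 205.8 and 135.1 in the Dahl S samples, with congenic sample 1 highest. The log2 difference was 0.20 (SE 0.26, interval -0.41 to 0.80), and without congenic sample 1 it was -0.03. Probe set U05013_at read 146.2, 106.6 and 97.4 in the congenic and 138.5, 97.8 and 89.1 in the Dahl S samples (log2 difference 0.11, SE 0.27). The sample numbered 1 was highest in each strain, and the groups overlapped. The third probe set, rc_AA955669_at, was under the filter, at 15 to 31.5 in the congenic and 17.9 to 49.3 in the Dahl S samples.

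Hpx, the plasma protein hemopexin that binds free heme and delivers it to cells, is made mainly by the liver. Its probe set read 39, 46 and 28.5 units in the congenic samples and 62.7, 41.3 and 79.9 in the Dahl S samples. Congenic sample 2 lay above Dahl S sample 2, and Dahl S sample 3, the sample rich in globin RNA, was highest. The congenic to Dahl S ratio of geometric means was 0.628 (log2 difference -0.67, SE 0.39, 95% interval -1.56 to 0.21). The difference was -0.46 when Dahl S sample 3 was left out and -0.93 when Dahl S sample 2 was.

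Part of the spread among the members went with the sample number that both strains share. The samples numbered 1 were above all 4 others in 5 of the 14 tested probe sets (35.7%) and below all others in 0, where 15.2% of all tested probe sets had them above and 14.2% below. The 5 were 3 of Slc11a2 and 1 each of Tfrc and Hmox2, so they are not independent. Among the untested probe sets the same was true of 3, of Tfrc, Tf and Cp. On U05013_at of Hmox2 the samples numbered 1 read 0.55 log2 units above the mean of the others, on rc_AI237645_at of Tfrc 0.45 and on AF008439_at of Slc11a2 0.70. The samples numbered 1 had the lower 3 prime to 5 prime ratios given above, and the part of RNA quality in these values was not tested.

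**Figure D3:**
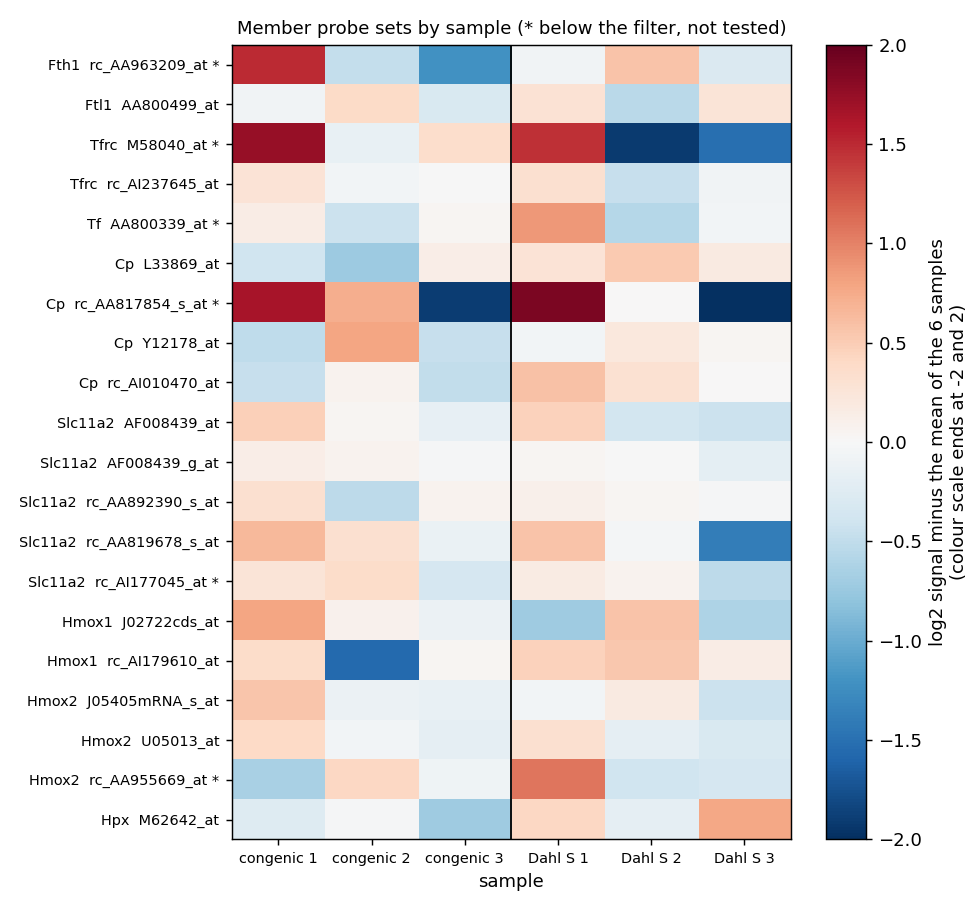
Log2 signal of each member probe set in each sample minus the mean of the 6 samples (colour; the scale ends at -2 and 2), with congenic samples left of the line and Dahl S samples right of it. Congenic sample 1 and Dahl S sample 1 are the red columns for 8 probe sets, among them both of Tfrc, and an asterisk marks the 6 probe sets below the filter.

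Other genes of iron and heme handling were read from 8 lists by role, with 1 probe set per gene. Of 83 such genes outside the members 65 were on the arrays and 54 were tested. In limma 0 of the 54 passed the adjusted threshold, 30 were higher and 24 lower in the congenic mean, and the median log2 difference was 0.02, against -0.01 over 8168 tested genes. At an unadjusted limma p under 0.05 there was 1 gene of the 54, Lcn2, the lipocalin that binds iron-loaded siderophores and marks tubular injury. That is 1.85% of the 54, where 192 of the 8168 tested genes (2.35%) had such a p. The strains did not overlap in 5 of the 54 (9.26%), where 622 of all tested genes (7.62%) were so separated. Lcn2 read 42.1, 13.2 and 25.6 units in the congenic samples and 63.4, 99.9 and 62 in the Dahl S samples, without overlap (log2 difference -1.60, SE 0.49). Congenic sample 2 was under the filter level, so the size of that difference is uncertain. The counts by list below include the members that belong to a list.

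Among genes of iron export and its hormone, Slc40a1, the exporter ferroportin, differed by 0.02 (SE 0.29) and Hfe, which modulates transferrin receptor binding, by 0.03 (SE 0.41). Hamp, the hormone hepcidin, read 43.9, 36.5 and 52.3 units in the congenic samples and 107.5, 21.4 and 95.7 in the Dahl S samples, a wide overlap, with 1 sample of each strain under the filter level (log2 difference -0.46, SE 0.68). Heph, a membrane ferroxidase related to ceruloplasmin, read 56.2, 54.5 and 52.5 in the congenic and 34.9, 43.6 and 20.6 in the Dahl S samples. The groups did not overlap, but Dahl S samples 1 and 3 were under the filter level of 39.3 (log2 difference 0.79, SE 0.58). Hjv, the hepcidin co-receptor hemojuvelin, differed by 0.25 (SE 0.28). In uptake, 7 of 9 tested genes were higher and 2 lower, with the metal carrier Slc39a14 at 0.48 (SE 0.25). In storage and release, 2 of 5 were higher and 3 lower, with the iron chaperones Pcbp2 at -0.15 (SE 0.15) and Pcbp3 at -0.38 (SE 0.43), where another Pcbp3 probe set read 0.39.

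Of the genes that sense iron and oxygen, 5 of 9 tested were higher and 4 lower. Aco1, which doubles as an iron regulatory protein, differed by 0.23 (SE 0.18). Ireb2, the second iron regulatory protein, read 71.7, 42.2 and 26.3 units in the congenic samples and 72.4, 13.1 and 6.2 in the Dahl S samples, with the sample numbered 1 highest in each strain (log2 difference 1.25, SE 0.89). Dahl S samples 2 and 3 were under the filter level, so that size is uncertain too. Egln1, a prolyl hydroxylase that marks hypoxia-inducible factors for degradation, read 334.6, 604 and 494 in the congenic and 615.5, 666.7 and 647.8 in the Dahl S samples. Those groups did not overlap (log2 difference -0.47, SE 0.23). The mitochondrial iron-sulfur list was split evenly, with 5 of 10 tested genes higher and 5 lower (median 0.002), with Bola3, a cluster assembly factor, at 0.17 (SE 0.15) and Fdx1, a ferredoxin, at 0.22 (SE 0.20) having the smallest p values.

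Heme synthesis had 5 of 9 tested genes higher and 4 lower (median 0.03). Alas1, the rate-limiting synthase outside red cells, differed by 0.28 (SE 0.27), though its other probe sets read -0.17 and 0.69, and Fech, the ferrochelatase that inserts iron, differed by -0.10 (SE 0.20). The porphyrin carrier Abcb6 (-0.71, SE 0.35) and the oxidase Ppox (0.31, SE 0.20) had the smallest p values of the list. Of the genes tested in the 8 lists, Abcb6 and Slc40a1 lie on chromosome 9 in the GRCr8 table; whether either lies within the congenic interval was not tested. The Ppox values did not overlap between the strains, but the other Ppox probe sets read -0.02 and -0.32, the second without overlap in the opposite direction. In heme degradation Blvra, the biliverdin reductase that acts after the heme oxygenases, differed by 0.13 (SE 0.16). In scavenging and transport 2 of 8 were higher and 6 lower (median -0.16), with Hp, the haemoglobin-binding haptoglobin, at -0.20 (SE 0.72), the folate and heme carrier Slc46a1 at 0.54 (SE 0.61) and Amn, the partner of cubilin, at -0.43 (SE 0.57). These 3 genes each had wide overlap between the strains. A second tested Amn probe set read 0.43 (SE 0.75), and the first was lowest in congenic sample 3, at 195.7 units. Hp had 1 sample of each strain under the filter level, and Slc46a1 had 1 congenic and 2 Dahl S samples under it.

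**Figure D4:**
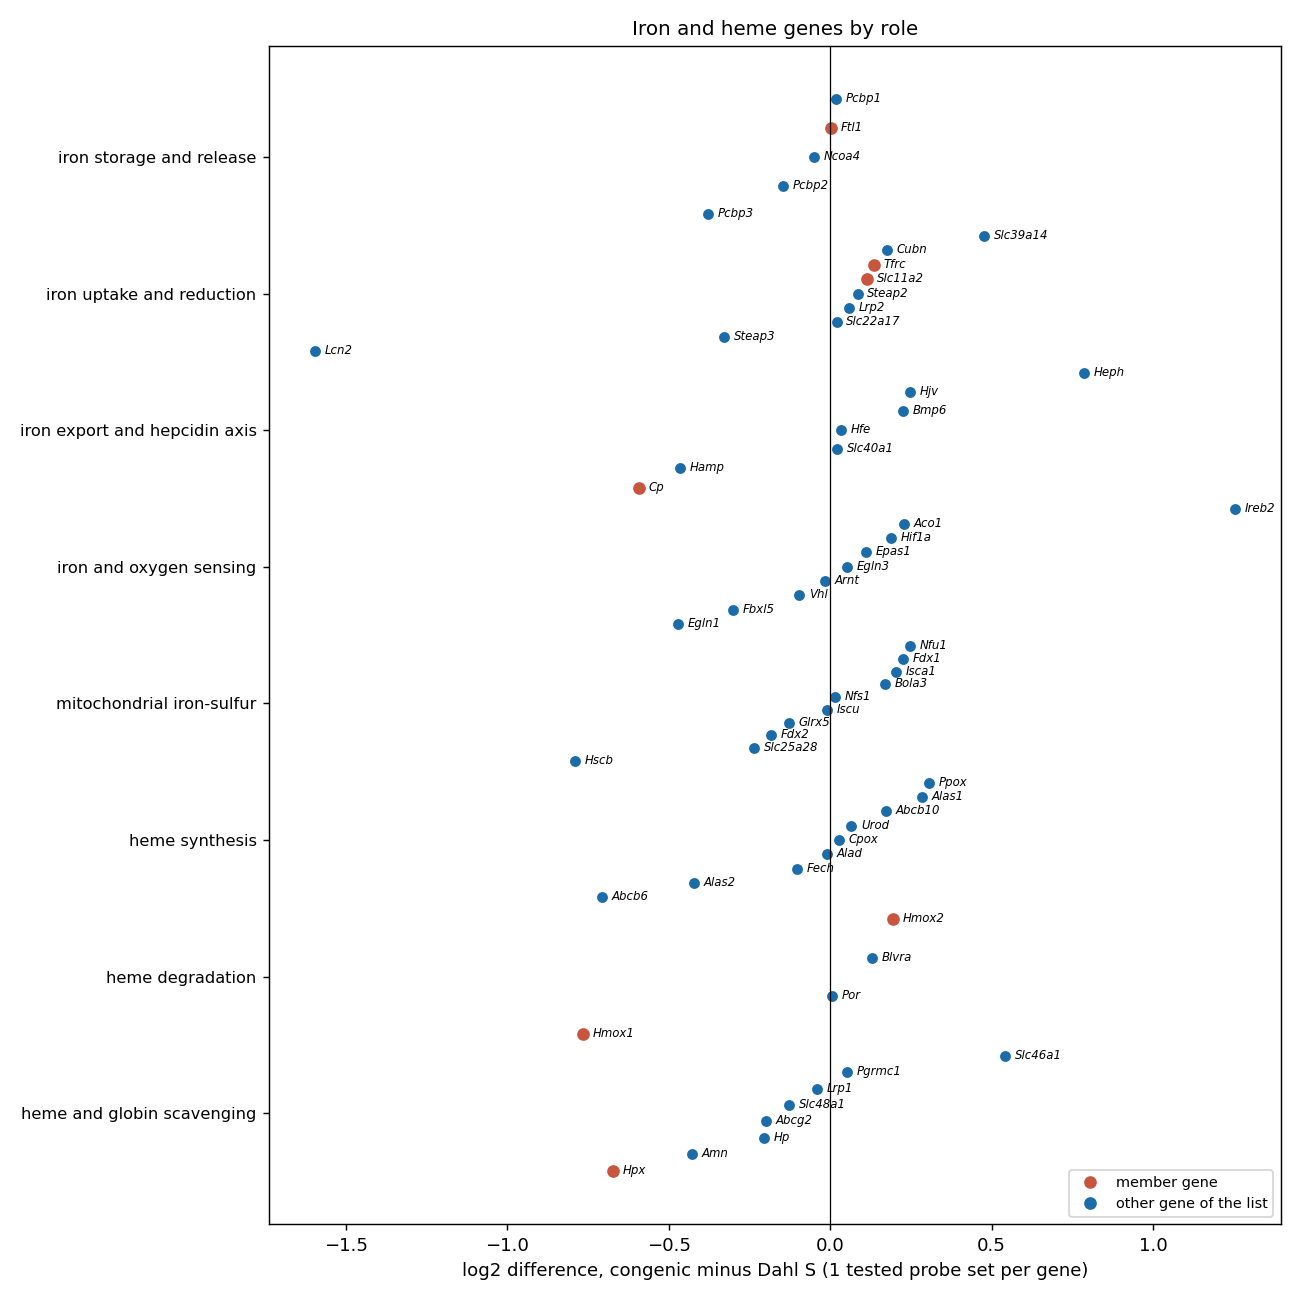
Log2 difference, congenic minus Dahl S, of each tested iron and heme gene (1 probe set per gene, no error shown), grouped by role; member genes are in red. Most points lie within 0.5 log2 units of 0; Lcn2 at -1.60 and Ireb2 at 1.25 lie farthest out, both with samples under the filter level.

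Nrf2 and Bach1 are the activator and the heme-sensing repressor that act on Hmox1 and the ferritins. A list of genes they control, together with regulators such as Nfe2l2, Keap1, Mafk and Mafg, had 15 tested genes. Of these 9 were higher and 6 lower (median 0.11), and 0 had an unadjusted limma p under 0.05 on the 1 probe set that stood for each gene. Over all 35 tested probe sets of the list 2 had such a p, where 2.49% of all tested probe sets did. Of the 2, 1 was of Mafk, with lower congenic signal. The other was of Gclm, a subunit of the enzyme that starts glutathione synthesis, with higher congenic signal. The strains did not overlap in 3 of the 15 genes, Gclc, Me1 and Mafk, where 7.62% of all tested genes were so separated. Gclc differed by 0.19 (SE 0.17), and its other probe set read 0.34, with overlap. Nfe2l2, which encodes Nrf2, differed by -0.11 (SE 0.32). Nqo1, a quinone reductase and Nrf2 target, read 70.6, 313.4 and 152.4 units in the congenic samples and 94.1, 106.8 and 205.2 in the Dahl S samples (log2 difference 0.24, SE 0.53). On the probe sets that stood for the genes, the smallest p values belonged to Me1, the malic enzyme, at 0.28 (SE 0.18), and Mafk, a partner of both regulators, at 0.26 (SE 0.18). Both had no overlap between the strains, but their other tested probe sets did not all share the direction: those of Me1 read from -0.26 to 0.26, and that of Mafk read -0.60 (SE 0.22), without overlap in the opposite direction and with a smaller p. The Gclm probe set S65555_g_at read 0.33 (SE 0.14), and the other Gclm probe sets read 0.22 and -0.12.

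Marker genes of cells that could add to the member signals were read beside them. Macrophages recycle heme iron and express Hmox1; 10 of 11 tested macrophage markers were lower in the congenic mean (median -0.43), and their summed signal was 3391.9 to 3521.2 in the congenic and 3622.9 to 5289.6 in the Dahl S samples. Cd68 was among them (-0.43, SE 0.19), whereas Cd163, the haemoglobin receptor of macrophages, and Ptprc were on the arrays but under the filter. In limma 0 of the 11 macrophage markers had an unadjusted p under 0.05, where 2.35% of all tested genes did. The strains did not overlap in 2 of the 11, where 7.62% of all tested genes were so separated. A summed signal is weighted to the brightest markers of a list. All 9 tested injury markers, Lcn2 among them, were lower in the congenic mean (median -0.73, summed signal 2588.8 to 3443.1 in the congenic and 4896.7 to 6922.2 in the Dahl S samples). In limma 4 of the 9 had an unadjusted p under 0.05, where 2.35% of all tested genes did, and 0 passed the adjusted threshold. The strains did not overlap in 5 of the 9, against 7.62% of all tested genes. The lists were chosen with earlier results of these data known, so these shares describe the list and are not independent support. Of 8 tested blood cell markers 6 were lower (median -0.43, summed signal 10234.3 to 19238.8 in the congenic and 12676 to 52305.7 in the Dahl S samples), with the beta-globin Hbb at 8393.5 in Dahl S sample 3. That direction rested on Dahl S sample 3: without it the congenic mean was above the Dahl S mean for 7 markers and under it for 1 (median 0.10), with Hbb at 0.19 and Hba-a1 at 0.02. Of 15 tested proximal tubule markers 14 were higher (median 0.14, summed signal 67118 to 79028.8 in the congenic and 64581.8 to 70035.5 in the Dahl S samples). Without congenic sample 2, or without Dahl S sample 1, 11 of the 15 were higher. Of these 15 markers 0 had an unadjusted limma p under 0.05, and 3 did not overlap between the strains. Over all 8168 tested genes 3994 were higher and 4174 lower. Liver and plasma protein markers were mixed, 6 of 9 higher, or 2 of 9 without congenic sample 2 (median 0.002 with all samples, summed signal 582.8 to 728.7 in the congenic and 619.8 to 708.2 in the Dahl S samples), and Alb, the albumin gene, was under the filter on all its probe sets. No marker probe set of these lists was listed at 0 in any sample, the lowest value being 0.2. Of the macrophage markers 7 of 11 were lower without Dahl S sample 2 (median -0.29), and of the injury markers at least 8 of 9 were lower whichever sample was left out (median -1.19 to -0.50). The part of these cells in the differences of Cp, Hmox1 and Hpx was not tested.

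The genes whose pattern over the 6 samples was most like that of a member were found by Pearson's r of log2 signal among 8167 other tested genes, as a description. For Cp (rc_AI010470_at) they were Hopx, a homeodomain protein (r = 0.996), Rpl26, a ribosomal protein (r = 0.986), and Sh3bgrl3, a thioredoxin-like protein (r = 0.985). For Hpx they were Reg3g, a secreted lectin (r = 0.966), Ap5s1, an adaptor complex subunit (r = 0.964), and Epm2aip1, a protein that interacts with laforin (r = 0.964). Each r rests on 6 values from 1 set of samples and was not tested.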

How the data were processed

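Kidney RNA of 3 congenic and 3 Dahl S samples had been hybridised to 3 array types, per the labels. Groups and sample numbers came from the titles. The authors deposited a linear intensity value for each probe set, and the trimmed mean (2% off each end) came to 150.1 to 150.2 on each array. No source used here names the software, and no further scaling was applied. Values under the 10th percentile of an array type (3.1, 6.8 and 4.8 units) were raised to it before log2. Controls (59 probe sets a type) were dropped, as were probe sets whose mean log2 signal was under the 40th percentile of their type, which left 15721 of 26202 for testing.

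The strains were compared, congenic minus Dahl S, with limma 3.58.1 in R 4.3.3 (lmFit, eBayes with an intensity trend), in 1 fit per array type, with Benjamini-Hochberg adjustment over all tested probe sets and a threshold of 0.05. The fit was run on simulated data to check its estimates of known differences. The simulated noise was independent between samples, so that run says nothing of what the samples numbered 1 share. A gene outside the members was represented by its probe set with the highest mean signal. By the platform annotation 18178 probe sets carried 1 symbol, 391 several and 7633 none, and 18122 of the 18178 matched the GRCr8 table. Apart from the GRCr8 gene and promoter tables, no source used here names a genome build. The members and lists were chosen with earlier results of these data known. Named beside the members were list genes with an unadjusted p under 0.05 or otherwise the 2 with the smallest p in a list, and a preset set of key genes; Umod was added after its values were seen. Alternatives covered the floor, the filter, the scaling, the variance model, the sample number as a block or term, samples left out and the adjustment; leaving samples out of the marker lists was added after seeing the data. Gclm was named after its values were seen. Figures used matplotlib 3.10.9 in Python 3.11.15.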

Additional observations from a re-analysis of the deposited data

How the results depend on the processing

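In all 18 alternatives 0 probe sets of the series, and so 0 members, passed an adjusted p of 0.05 in limma; the lowest adjusted p of a member was 0.923, with the replicate block. The number of member probe sets with an unadjusted limma p under 0.05 was 1 in the main setting and lay between 0 and 1 with 1 sample left out, at 0 without Dahl S sample 1 and without Dahl S sample 2. It was 0 under median scaling and without both samples numbered 1; the cause was not tested. Which probe set it was also varied: L33869_at of Cp without the trend or without congenic sample 3, and rc_AI179610_at of Hmox1 without congenic sample 1. Of 248 member values under the alternatives 235 kept their direction, 13 reversed and 0 passed the threshold. The filters, the variance models, the sample number block or term and the adjustment cannot change a difference, and the floors changed none. Member differences changed only under the scalings and with samples left out, so the 235 include values that were bound to keep their direction. The reversals were of small differences: Ftl1 was -0.0398 under quantile normalization and -0.0194 under median scaling, and without both samples numbered 1 J05405mRNA_s_at of Hmox2 was -0.013 and Y12178_at of Cp 0.0368. With 1 sample left out, Ftl1 ranged from -0.27 to 0.16, Y12178_at of Cp from -0.55 to 0.10, J05405mRNA_s_at of Hmox2 from -0.0349 to 0.336, U05013_at of Hmox2 from -0.0633 to 0.3, rc_AA892390_s_at of Slc11a2 from -0.27 to 0.16 and rc_AI237645_at of Tfrc from -0.0588 to 0.334. Over all tested probe sets 391 had such a p; the alternatives gave 259 (filter at the 60th percentile, 10481 tested) to 819, with 797 of 26202 without a filter. The median log2 difference of the other iron and heme genes, 0.0194, was near 0 throughout: it was 0.0045 under quantile normalization and ranged from -0.013 (without Dahl S sample 1) to 0.0554 (without congenic sample 1) with 1 sample left out, so its sign is not settled. Marker lists with 1 sample left out were added after seeing the data: the blood cell median ranged from -0.739 to 0.104, above 0 only without Dahl S sample 3, and the liver and plasma protein median from -0.158 to 0.0816.

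The sample numbers were not taken as pairs, since not every same-numbered pair had deviations from the strain means that correlated above 0.1. On types A, B and C the correlations were 0.526, 0.363 and 0.486 for number 1, -0.0934, 0.164 and 0.183 for number 2, and 0.157, 0.136 and 0.297 for number 3. Number 2 on type A was the one pair under 0.1. Between differently numbered samples, congenic 2 with Dahl S 3 and congenic 3 with Dahl S 2, they were 0.297 and 0.24 on type A. On type B these were 0.0482 and 0.107 and on type C 0.0678 and 0.0935. The SEs and intervals given above come from the fit without a block, so they do not take up what the samples numbered 1 share. With the replicate block no probe set reached the adjusted threshold, and the number with an unadjusted limma p under 0.05 was 819, against 391 without it. Each number occurs once in each strain, so the block cannot change a strain difference, and that of rc_AI010470_at of Cp was necessarily -0.594 there too. Only its SE and p could change, and its unadjusted limma p was again under 0.05. With 3 samples a strain, the number of arrays limits the precision.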

Other observations

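Fga, the fibrinogen alpha chain, is like ceruloplasmin and hemopexin a plasma protein of the acute phase, and it had the smallest p among the liver and plasma protein markers; it is named here after its values were seen. Its probe set M35601_at read 41.3, 54.9 and 49.5 units in the congenic samples and 76.2, 94 and 108.7 in the Dahl S samples, without overlap (log2 difference -0.93, SE 0.28), and did not pass the adjusted threshold. A second tested probe set, M35601_g_at, read 28.9, 62.7 and 28.6 in the congenic and 72.2, 95.5 and 62.2 in the Dahl S samples, where congenic sample 2 overlapped (log2 difference -1.02, SE 0.41). The remaining Fga probe set was under the filter. The one tested probe set of Fgg, the fibrinogen gamma chain, read 29.6, 55.9 and 28.1 in the congenic and 34.5, 23.4 and 39.3 in the Dahl S samples (log2 difference 0.18, SE 0.46), and Fgb, the beta chain, was under the filter. The list as a whole had 6 of 9 tested genes higher in the congenic mean. The transport protein Ttr and the apolipoprotein Apoa1, from the same list, differed by 0.18 (SE 0.41) and 0.00 (SE 0.34).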
